A study of Mus musculus with 5 samples.

Results

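The 10 genes described here encode cell surface or secreted signals that T cells and phagocytes read on other cells, and receptors for such signals. They are Cd274, which encodes PD-L1, Pdcd1lg2, which encodes PD-L2, Cd80, Cd86, Cd40, Cd47, Sirpa, Lgals9, Havcr2, which encodes TIM-3, and Pdcd1, which encodes PD-1. They were chosen by symbol, and all 10 were found among the 32285 genes of the deposited matrices. The study used droplet single-cell RNA sequencing of CMM cells, a mouse acute myeloid leukaemia with the inv(16) fusion, marked with green fluorescent protein (GFP) and engrafted by vein into C57BL/6 mice. Once GFP+ cells made up about 1% of blood, the mice were injected 3 times by vein, on alternate days, with PBS or with CpG-STAT3dODN, a decoy DNA that binds the transcription factor STAT3 and is joined to a CpG oligonucleotide. GFP+c-Kit+ cells were sorted from the spleens. The PBS group had 1 library and the Decoy group 4 libraries, numbered 2, 3, 5 and 6, so all mice carried the leukaemia and no library came from a healthy mouse. The age and sex of the mice are not in the labels, nor is there a group given CpG DNA without the STAT3 decoy. Whether the libraries stem from separate mice is not in the labels, so p-values reflect the spread among libraries, which may be technical.

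PD-L1 and PD-L2 bind PD-1 on T cells and dampen their activation, while CD80 and CD86 bind CD28, which activates T cells, and CTLA-4, which restrains them. CD40 on antigen-presenting cells receives the CD40 ligand of helper T cells. CD47 is displayed by most cells and signals to SIRP-alpha on phagocytes not to engulf them, and galectin-9, the product of Lgals9, is a ligand of TIM-3. Leukaemic and host cells can both carry these molecules in a leukaemic spleen, and STAT3 is among the factors known to act on the transcription of Cd274.

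Cd274 and Pdcd1lg2 lie next to each other on mouse chromosome 19, Cd274 at chr19:29367455-29388095 and Pdcd1lg2 at chr19:29410919-29471161 (mm10, both on the plus strand), with 22823 bases between them. They are shown first because these neighbours had different patterns across the cells below, and Lgals9 (chr11:78962974-78984946, minus strand) because it came nearest to a call in the leukaemic cells. The RefSeq promoter windows (GRCm38.p6, 250 bases before to 50 bases after the start, printed 5′ to 3′ on the strand of the gene) span chr19:29367188-29367487 for Cd274, chr19:29410669-29410968 for Pdcd1lg2 and chr11:78984875-78985174 for Lgals9. Capitals mark matches, on either strand, to letters that interferon regulatory factors (IRF) bind.
Cd274: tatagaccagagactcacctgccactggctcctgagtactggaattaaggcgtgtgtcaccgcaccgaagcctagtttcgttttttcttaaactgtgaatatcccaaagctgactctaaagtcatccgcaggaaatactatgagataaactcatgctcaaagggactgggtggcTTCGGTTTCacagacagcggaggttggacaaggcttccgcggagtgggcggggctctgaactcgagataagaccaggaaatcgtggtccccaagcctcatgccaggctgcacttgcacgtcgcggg
Pdcd1lg2: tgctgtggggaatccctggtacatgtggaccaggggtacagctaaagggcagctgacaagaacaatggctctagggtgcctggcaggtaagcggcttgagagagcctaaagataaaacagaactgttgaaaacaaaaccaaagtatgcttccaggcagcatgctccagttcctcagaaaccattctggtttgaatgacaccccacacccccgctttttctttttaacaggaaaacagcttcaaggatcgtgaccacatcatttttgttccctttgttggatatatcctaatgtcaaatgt
Lgals9: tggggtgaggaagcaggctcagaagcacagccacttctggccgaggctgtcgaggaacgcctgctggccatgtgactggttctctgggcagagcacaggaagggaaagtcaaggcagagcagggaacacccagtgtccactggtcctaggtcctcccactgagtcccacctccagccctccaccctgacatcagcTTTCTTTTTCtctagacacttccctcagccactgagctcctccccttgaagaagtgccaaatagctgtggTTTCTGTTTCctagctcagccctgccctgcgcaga
The Cd274 window holds 1 match to GAAANNGAA, read on the other strand, with its first base at -76 from the start. Of all 32851 mouse promoter windows of this length, 8.56% hold that motif. The Lgals9 window holds 2 matches to the longer GAAANNGAAA, which 3.44% of windows hold, with first bases at -55 and at 16; each of them contains the shorter motif. TTCNNNGAA, the paired half-sites that STAT proteins bind, occurs in 8.3% of windows and in none of the 8 windows found for 7 of the 10 genes. A match in these letters is a description of the sequence only. The other genes lie at chr16:38455561-38496335 (Cd80, plus strand), chr16:36603869-36666081 (Cd86, minus), chr2:165055627-165072948 (Cd40, plus), chr16:49800533-49915010 (Cd47, plus), chr2:129592835-129632228 (Sirpa, plus), chr11:46454935-46481255 (Havcr2, plus) and chr1:94038305-94052553 (Pdcd1, minus).

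The libraries differed in the cells they held. Between 1933 and 16034 cells were kept per library, with a median of 14005 to 36505 UMIs (unique molecular identifiers, the counted RNA molecules) per cell. A mast cell-like class that carried Xist, at 879 to 1081 CPM (UMIs of a gene per 1000000 UMIs of the class), made up 91.6% of kept cells in PBS, 83.6% in Decoy 2, 19.8% in Decoy 3, none in Decoy 5 and 44.3% in Decoy 6. Genes of the Y chromosome were at 0.189 to 0.628 CPM in that class and at 45.8 to 180 CPM in the other classes with at least 50 cells in a library, so the mast cell-like cells are taken here as the leukaemic clone and the Y-bearing cells as the male host. Xist was lower but present in host classes, at 116.5 CPM in macrophage-like cells of PBS and 96.9, 39.9, 0 and 92.5 CPM in Decoy 2, 3, 5 and 6. How much leukaemic RNA the host classes held was not tested. Kit, the gene of the sort marker, averaged 48.5 CPM in mast cell-like cells. Erythroid-like host cells had 5.96 CPM in PBS but 45.84, 31.85 and 28.14 CPM in Decoy 3, 5 and 6. Macrophage-like cells averaged 9.87 CPM and B cell-like cells 4.84 CPM, so these host classes carried little of that RNA. Most kept cells of Decoy 3, 5 and 6 thus did not resemble the GFP+c-Kit+ cells that the labels name, and whether another gate was used for them is not in the labels. An unnamed cluster of 442 low-UMI cells, with Xist at 941 CPM and Y-linked genes at 2.10 CPM, was left out of the leukaemic class and of the host classes. Libraries shared 1 to 45 barcodes with each other, at most 0.695% of the smaller library. The doublet caller marked 6.88% of PBS barcodes but 0% to 0.412% of those of each Decoy library, where it did not work. The rates expected from the numbers of barcodes were 15.5% in PBS and 1.96% to 5.49% in the Decoy libraries. Removal was thus unequal between the groups, at 1185 barcodes in PBS and 0 to 8 in each Decoy library.

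The source of each transcript therefore moved with the library (bar plot of UMI sources). In PBS, 93.2% of Cd274 UMIs and 99.0% of Pdcd1lg2 UMIs came from mast cell-like cells. In Decoy 3 these shares were 6.401% and 28.3%, and macrophage-like cells supplied 81.2% of Cd274 and 64.7% of Pdcd1lg2 UMIs. Macrophage-like cells made up 0.705% of kept cells in PBS, and 3.30%, 32.2%, 29.1% and 19.6% in Decoy 2, 3, 5 and 6. Sirpa, the CD47 receptor of phagocytes, came from macrophage-like cells for 30.2% of its UMIs in PBS and 57.8% to 93.7% in the Decoy libraries. Lgals9 passed from mast cell-like cells, 98.2% of its UMIs in PBS, to erythroid-like cells, 80.8% in Decoy 5, the library without mast cell-like cells. Pdcd1 stayed with T cell-like cells, at 89.4% of its UMIs in PBS and 63.6% to 83.0% in the Decoy libraries.

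**Figure D1:**
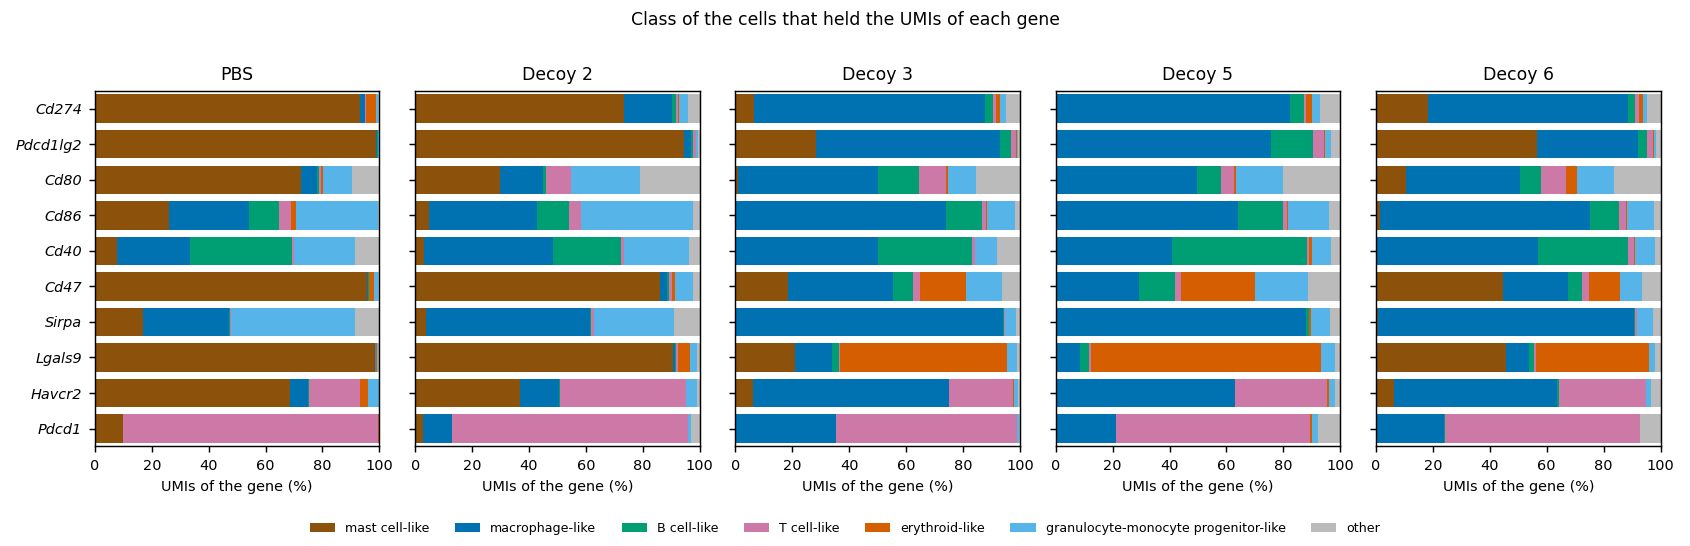
Stacked bars give, for each gene and library, the percent of its UMIs that came from each cell class. In PBS the bars of Cd274, Pdcd1lg2, Cd47 and Lgals9 are nearly all mast cell-like, and in Decoy 3, 5 and 6 most Cd274 and Sirpa UMIs are macrophage-like.

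Summed over all kept cells, none of the 10 genes passed edgeR's quasi-likelihood test between Decoy and PBS at an adjusted p under 0.05, where 0% of the 16006 genes tested passed. At an unadjusted p under 0.05 there were 4 of the 10 genes (Cd86, Cd40, Sirpa and Pdcd1) and 1667 of all genes. DESeq2 called those 4 among 2029 genes, and limma voom called 0 genes. Cd274 was at 9.27 CPM in PBS and at 11.03, 44.8, 41.6 and 31.7 CPM in Decoy 2, 3, 5 and 6, a log2 difference of 1.74 ± 0.82 (SE, edgeR, adjusted p = 0.469). Sirpa had a log2 difference of 6.00 ± 1.95, Cd40 of 5.14 ± 1.52 and Cd86 of 4.89 ± 1.78, each above the spread only without adjustment. Without Decoy 2, the Decoy library most like PBS in its cells, edgeR called 7 of the 10 genes higher among 2474 genes. In such sums, fewer cells of a type and less RNA per cell cannot be told apart, so the genes were next read within classes.

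Cd274 was highest in macrophage-like cells in each of the 5 libraries (dot plot of levels by class). Its level there was 63.3 CPM in PBS (95% Poisson interval 49.8 to 79.4) and 119, 114, 127 and 123 CPM in Decoy 2, 3, 5 and 6, a mean of 109 ± 26.2 (SD, n = 5). Neutrophil-like cells came next at 19.4 ± 10.5 CPM, then plasma cell-like cells at 17.1 ± 2.30 (n = 3), and the other classes lay between 7.21 and 14.2 CPM on average. Macrophage-like cells stood apart from the next class beyond the spread over libraries, and mast cell-like cells, at 8.92 to 12.3 CPM, from the lowest class, progenitor-like cells at 6.46 to 8.23 CPM. The other neighbours in the order overlapped. In the leukaemic mast cell-like cells Cd274 was at 8.92 CPM in PBS and at 9.09, 12.3 and 11.3 CPM in Decoy 2, 3 and 6. Their Y-linked UMIs put the Cd274 UMIs expected as free RNA of other cells at 20.8 in PBS, where 4401 were counted.

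**Figure D2:**
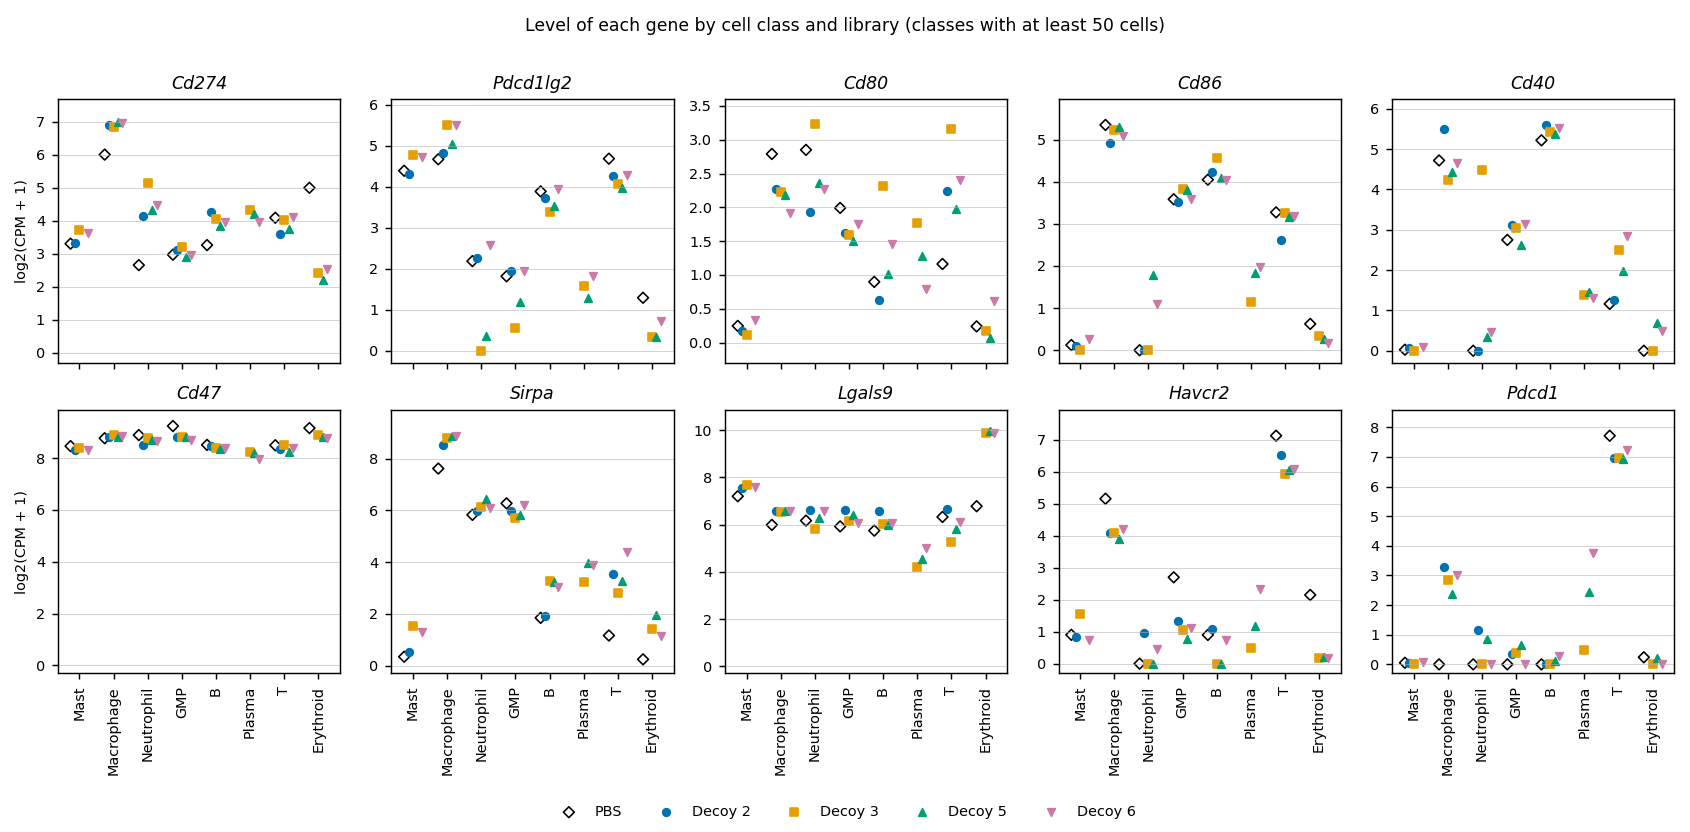
Each point is the level of a gene in the cells of 1 class in 1 library, as log2(CPM + 1), with PBS and Decoy libraries in different colours and 1 panel per gene. Cd274, Sirpa and Cd86 peak in macrophage-like cells, Cd40 in B cell-like cells and Pdcd1 in T cell-like cells, while Cd47 is high in all classes.

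The main split within the host cells was finer than these classes. Among host cells without a Xist UMI, clustered more finely, Cd274 reached 216 CPM in monocyte-like cells led by Ace and Tppp3 (188 cells), 168 CPM in macrophage-like cells led by Gpnmb and Ednrb (852 cells) and 141 CPM in an unnamed cluster led by Cadm1 and Sema6d (502 cells). Monocyte-like cells led by Vcan (555 cells) had 9.09 CPM. The neutrophil-like cells split likewise: those led by Cstdc4 and Retnlg (205 cells) had 165 CPM of Cd274, with 124 to 320 CPM by library, and those led by Camp and Ltf, granule genes of immature neutrophils (364 cells), had 4.73 CPM. PBS supplied 7, 10 and 15 cells of the Ace-, Gpnmb- and Cadm1-led clusters and 10 of the Retnlg-led one. It supplied 68 of the Vcan-led and 40 of the Camp-led cells. The pooled levels of the high clusters are therefore mainly those of Decoy cells. In the Decoy libraries, high Cd274 was thus a property of some monocyte, macrophage and neutrophil clusters and not of these lineages as a whole. The heat map of levels by cluster shows these contrasts for all 10 genes.

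**Figure D3:**
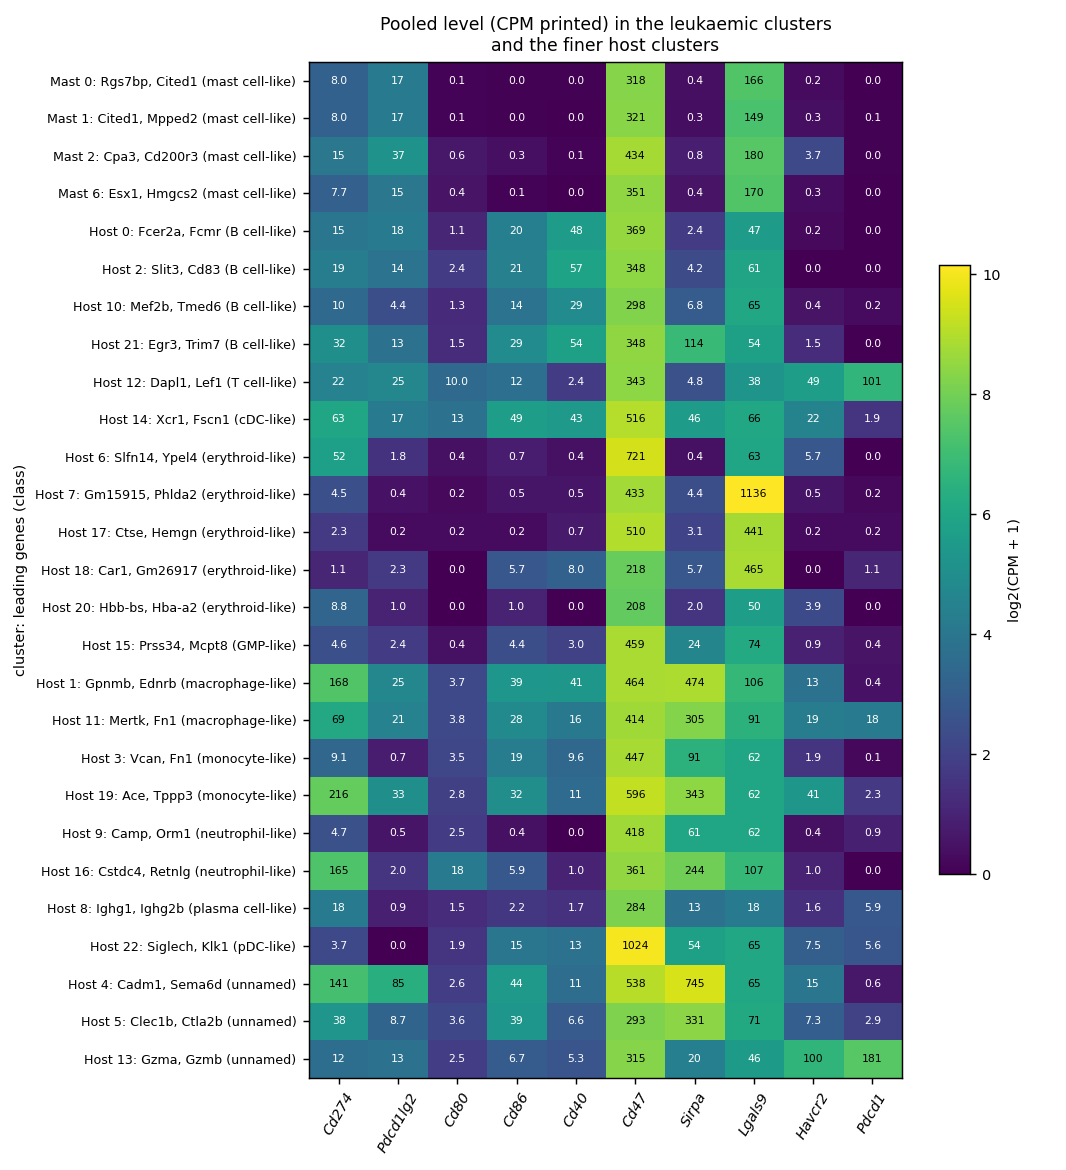
Rows are the 4 mast cell-like clusters and 23 finer clusters of host cells and columns the 10 genes, coloured by log2(CPM + 1) with the CPM, pooled over libraries, printed in each cell. Cd274 is bright in some of the monocyte-, macrophage- and neutrophil-like rows, with 4.73 CPM in one neutrophil-like cluster and 165 CPM in the other, and Cd47 is bright in all rows.

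Pdcd1lg2 followed another order. It was at 34.6 ± 9.42 CPM (SD, n = 5) in macrophage-like cells and at 22.7 ± 3.82 CPM (n = 4) in the leukaemic mast cell-like cells, where PBS had 19.999 and Decoy 2, 3 and 6 had 18.8, 26.4 and 25.5 CPM. T cell-like cells had 18.4 ± 3.93 CPM and B cell-like cells 12.1 ± 2.15 CPM, and the remaining classes at most 2.51 CPM on average. The spreads of macrophage-like, mast cell-like and T cell-like cells touch, so their order is not fixed by these libraries. The leukaemic cells had the highest mean balance of Pdcd1lg2 to Cd274, its neighbour (plot of the ligand balance). They held 2.18 ± 0.0843 UMIs of Pdcd1lg2 for each UMI of Cd274 (SD, n = 4, range 2.07 to 2.25). The ratio was 1.30 ± 0.26 (range 1.04 to 1.63) in T cell-like, 0.931 ± 0.404 in B cell-like, 0.324 ± 0.0768 in macrophage-like and 0.0789 in erythroid-like cells. By library these ratios did not overlap the leukaemic ones, but 3 lymphocyte values rested on few UMIs: Pdcd1lg2 made up 60.6% of both genes' UMIs in PBS T cell-like cells (95% Clopper-Pearson interval 42.1 to 77.1), 61.9% in those of Decoy 2 (48.8 to 73.9) and 61.5% in PBS B cell-like cells (40.6 to 79.8), intervals that hold the leukaemic 67.5% to 69.2%. The same 3 sums also held Xist, at 278, 279 and 96.6 CPM in that order. In T cell-like cells of Decoy 3, 5 and 6 Xist was at 0.66, 0 and 164 CPM. In B cell-like cells of Decoy 2, 3, 5 and 6 it was at 183, 1.04, 0 and 95.5 CPM. The part of leukaemic RNA in these ratios was not tested. By finer cluster the ratios did overlap. Those of the leukaemic clusters ran from 1.42 (12 Cd274 and 17 Pdcd1lg2 UMIs) to 2.75 by library. A T cell-like cluster led by Dapl1 had 2.2 in PBS, from 5 Cd274 and 11 Pdcd1lg2 UMIs. A ratio of UMIs between genes depends on how well each is captured, so it is read only from class to class.

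**Figure D4:**
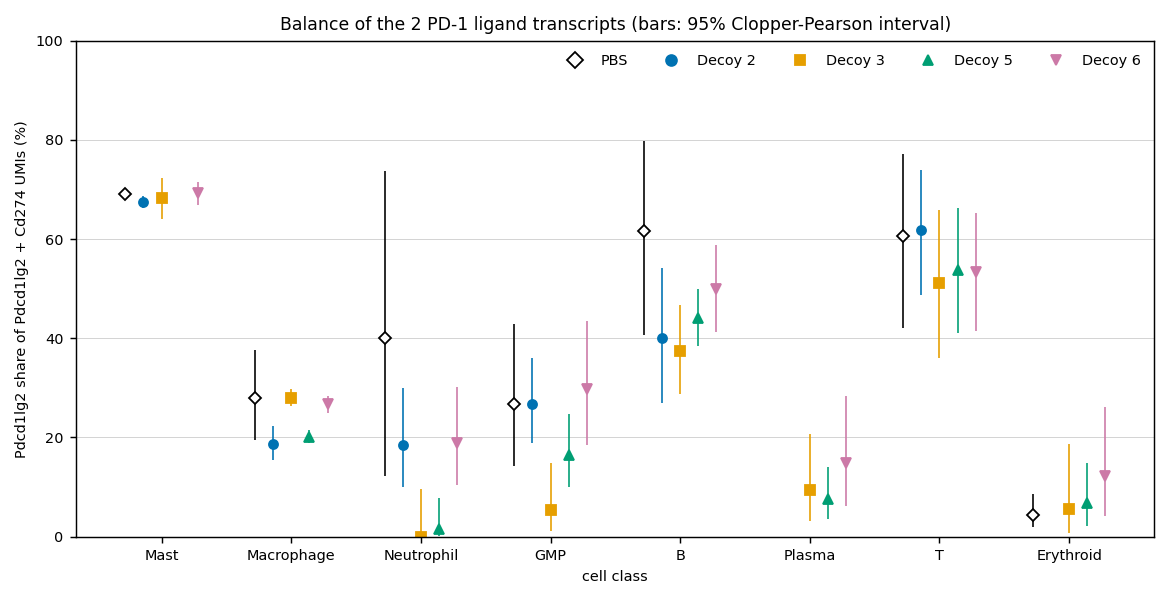
Points give Pdcd1lg2 UMIs as a percent of Pdcd1lg2 plus Cd274 UMIs in each class and library, with 95% Clopper-Pearson bars. Mast cell-like cells lie between 67.5% and 69.2% in all 4 libraries that hold them, above each macrophage-like value.

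Within the leukaemic cells both ligands were higher in 1 of the 4 clusters. The cluster led by Cpa3, Cd200r3 and Fcer1a, genes of mast cells and basophils (5698 cells), had 36.6 CPM of Pdcd1lg2 and 15.2 CPM of Cd274, against 15.4 to 17.1 CPM and 7.75 to 7.98 CPM in the other 3 clusters. Its Cd274 level was 15.003, 15.8, 15.6 and 14.9 CPM in PBS and Decoy 2, 3 and 6, and its Pdcd1lg2 level 36.2, 35.7, 42.5 and 40.9 CPM. The excess over the other clusters was thus present in PBS and in the Decoy libraries alike. In the host, the unnamed cluster led by Cadm1 and Sema6d had the most Pdcd1lg2, 84.8 CPM, and the Retnlg-led neutrophil-like cells, rich in Cd274, held 1 UMI of Pdcd1lg2 beside 164 of Cd274 in the 4 Decoy libraries. T cell-like and B cell-like cells kept a Pdcd1lg2 level of 14.6 and 10.6 CPM in Decoy 5, the library in which no mast cell-like cells were found.

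Between treatment groups, the leukaemic cells gave no call for any of the 8 genes that could be tested, against 0.634% of the 14348 genes tested in that class, with Decoy 2, 3 and 6 in the fit. The log2 difference of Decoy from PBS, on TMM-scaled counts in edgeR, was 0.35 ± 0.17 for Cd274 (SE, adjusted p = 0.585) and 0.30 ± 0.17 for Pdcd1lg2 (adjusted p = 0.658). At an unadjusted p under 0.05 there were 2 of the 8, Lgals9 and Sirpa. DESeq2 called 2 of these genes and voom 1. Cd40 and Pdcd1 had too few UMIs in this class to be tested. The plot of differences by class shows these values beside those of the host cells.

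**Figure D5:**
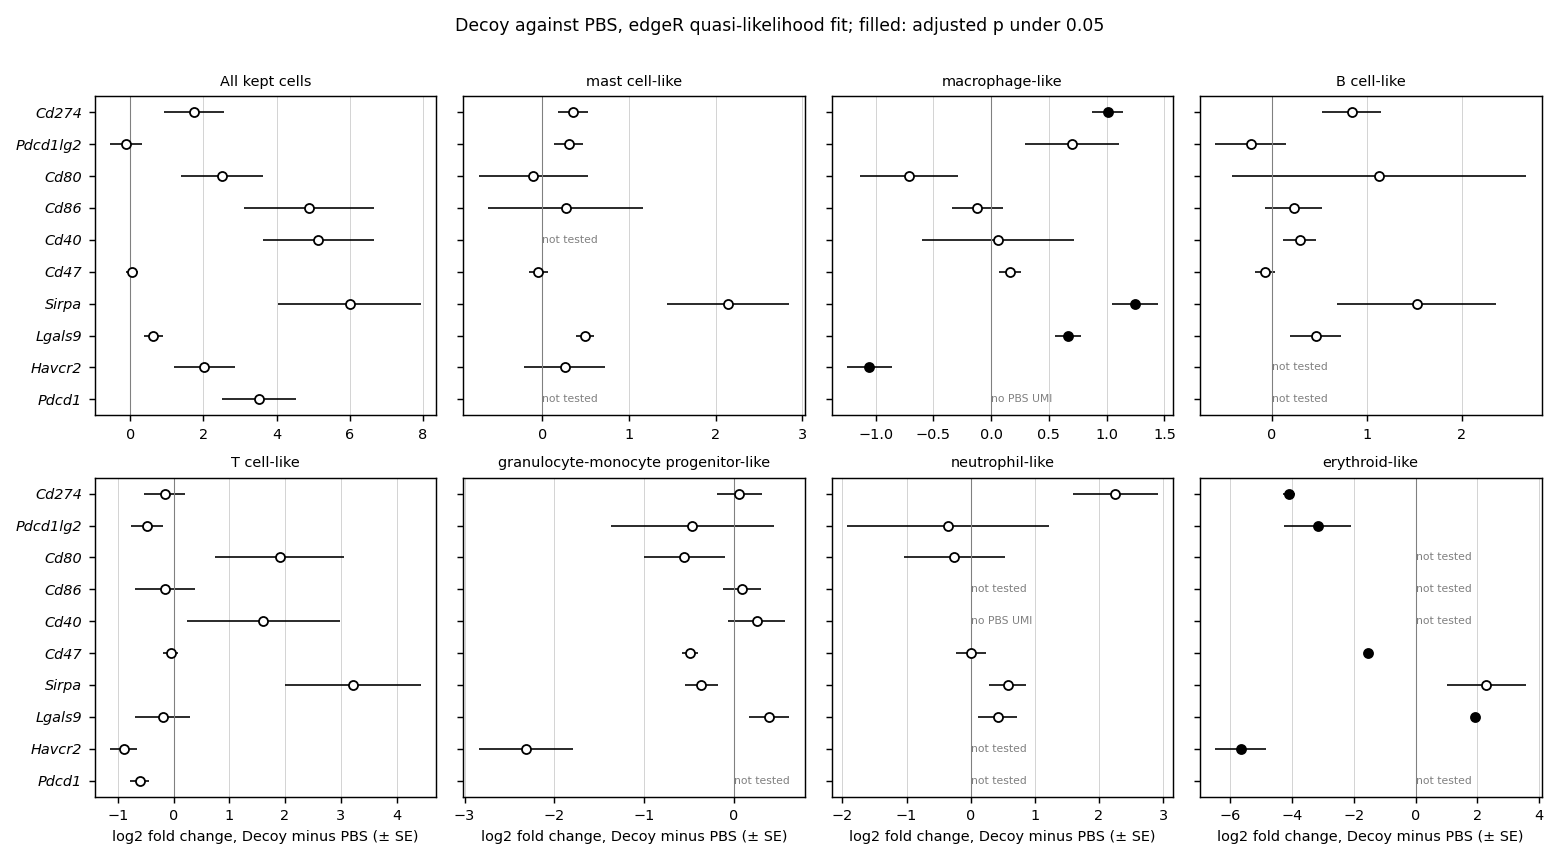
Points give the log2 difference of Decoy from PBS for each gene in each class with its standard error, filled where the edgeR adjusted p is under 0.05. Filled points occur in the macrophage-like panel (Cd274, Sirpa and Lgals9 higher, Havcr2 lower) and in the erythroid-like panel.

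In macrophage-like cells Cd274, Sirpa and Lgals9 rose and Havcr2 fell, 4 of 10 genes, where 5.3% of the 13375 genes tested in the class were called, 2.96% higher and 2.34% lower. The log2 difference was 1.01 ± 0.13 for Cd274 (SE, edgeR adjusted p = 0.0220), 1.24 ± 0.20 for Sirpa (adjusted p = 0.0297), 0.67 ± 0.11 for Lgals9 (adjusted p = 0.0341) and -1.05 ± 0.19 for Havcr2 (adjusted p = 0.0381). Each of the 4 Decoy libraries lay on the same side of PBS for all 4 genes. Of all 10, 6 had every Decoy library above PBS, as 41% of all genes did, and 2 had every one below, as 32.9% did. The direction held in all 12 alternatives, but the calls did not: without Decoy 3 or without Decoy 6 no gene of the 10 was called, without Decoy 5 Cd274 alone was, and limma voom called none. With doublets removed at the expected rate, and at a clustering resolution of 1.0, Cd274 and Sirpa stayed called and Lgals9 and Havcr2 did not. In host cells without a Xist UMI, an alternative chosen after seeing the data, Lgals9 alone was called, with a log2 difference of 1.33 (adjusted p = 0.0257). Pdcd1lg2 (0.70 ± 0.41), Cd47 (0.16 ± 0.09), Cd80, Cd86 and Cd40 did not pass.

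The macrophage-like cells of PBS were not the same mixture as those of the Decoy libraries, and this moved with the result. A cluster led by Saa3, Fcgr4 and Mertk held 57.9% of the macrophage-like UMIs in PBS and 91.2% to 97.6% in the Decoy libraries, and a low-UMI cluster led by Marco and Cd5l, genes of splenic tissue macrophages, held the rest. In the Saa3-led cluster alone, Cd274 was at 93.3 CPM in the 43 PBS cells (95% Poisson interval 71.9 to 119) and at 129, 116, 130 and 128 CPM in Decoy 2, 3, 5 and 6. Sirpa was at 318 CPM in PBS (277 to 363) and at 377, 454, 482 and 483 CPM. The gap to PBS was thus smaller within this cluster for Cd274 and Sirpa, and for Cd274 the lowest Decoy library lay inside the counting interval of PBS. Lgals9 was at 39.4 CPM in PBS (25.9 to 57.3) and at 91.1 to 98.4 CPM in the Decoy libraries, and Havcr2 at 36.5 CPM (23.6 to 53.8) against 14.0 to 18.1 CPM, gaps at least as wide as in the whole class. In the Marco-led cluster Cd274 was at 22.1 CPM in PBS and at 21.7, 35.3, 35.7 and 34.5 CPM, so Decoy 2 did not exceed PBS. Sirpa there was at 28.1 CPM in PBS (15.4 to 47.1) and at 238, 212, 290 and 317 CPM, a gap wider than in the whole class. Lgals9 there was at 94.3 CPM in PBS and at 65.001, 96.6, 134 and 159 CPM, on both sides of PBS. Havcr2 there was at 32.1 CPM in PBS (18.35 to 52.1) and at 0, 33.0, 8.57 and 7.79 CPM, so Decoy 3 was not below PBS. The Saa3-led cluster may itself be a mixture that differs between the groups. Finer host clusters led by Gpnmb, Cadm1 and Mertk held 10, 15 and 0 PBS cells. In the Decoy libraries they held 59 to 400, 17 to 186 and 7 to 133 cells. The part of this in the gaps within the Saa3-led cluster was not tested. With 43 and 70 PBS cells no test was made within the clusters.

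The share of macrophage-like cells with a Cd274 UMI, after thinning each cell to 2000 UMIs, was 8.75% in PBS (95% Clopper-Pearson interval 3.59 to 17.2, 80 cells after leaving out 33 shallower ones) and 19.6%, 22.0%, 25.8% and 22.5% in Decoy 2, 3, 5 and 6, where 58, 74, 147 and 69 cells were left out. Unthinned shares were 33.6% and 49.5% to 72.7%, but the median depth of the class was 4013 UMIs in PBS and 14657 to 21876 in the Decoy libraries. For Sirpa the thinned share was 23.8% (14.95 to 34.6) and 40.5% to 58.3%. Mast cell-like cells, thinned alike, had a Cd274 UMI in 1.90% of cells in PBS (1.68 to 2.13) and in 1.79%, 1.84% and 2.05% in Decoy 2, 3 and 6. The Decoy shares of the leukaemic cells lay on both sides of the PBS share. An exact permutation test of 1 library against 4 cannot give a p below 0.2, and over 80 such tests the smallest adjusted p was 0.769. Erythroid-like cells of Decoy 3, 5 and 6, whose Cd274 level of 3.60 to 4.78 CPM was the lowest of any class there, gave shares of 0.725%, 0.267% and 0%, the last allowing up to 2.16%.

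The other host classes gave no call for Cd274 apart from the erythroid-like class. In neutrophil-like cells it was at 5.32 CPM in PBS (95% Poisson interval 1.95 to 11.6) and at 16.6, 34.5, 19.0 and 21.4 CPM in Decoy 2, 3, 5 and 6, a log2 difference of 2.26 ± 0.66 (SE, edgeR, adjusted p = 0.695). The Retnlg-led cluster, which is rich in Cd274, held 20% of the 50 PBS neutrophil-like cells without a Xist UMI and 29.6%, 38.7%, 38.6% and 42.2% of those of Decoy 2, 3, 5 and 6, and its part in the difference was not tested. None of the 7 genes tested there was called, where 0% of 9493 genes were, with 668 genes at an unadjusted p under 0.05, 40 called by DESeq2 and 0 by voom. In B cell-like cells the difference was 0.84 ± 0.31 (adjusted p = 0.373), with none of 8 genes called against 0.0451% of 11083. The B cell-like cells, too, were of another mixture: without Xist-positive cells, a cluster led by Fcer2a and Fcmr held 88.8% of them in PBS and 41.5%, 26.02%, 37.3% and 50.9% in Decoy 2, 3, 5 and 6. Within that cluster Cd274 was at 9.72 CPM in PBS and at 27.8, 11.2, 17.2 and 11.4 CPM. In the class named granulocyte-monocyte progenitor-like from Mpo, Elane and related genes, 66.3% of the 828 cells without a Xist UMI fell in the finer monocyte-like cluster led by Vcan and 26.2% in a finer progenitor-like cluster with Mpo and Elane. The monocyte-like share was 81.9% in PBS and 60.8% to 70.3% in the Decoy libraries. In the class as a whole Cd274 was at 6.46 to 8.23 CPM in all 5 libraries, and none of 9 genes was called against 1.31% of 11174.

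Erythroid-like cells, precursors of red blood cells, were of different kinds in the groups. A cluster led by haemoglobin genes and Slfn14 supplied 550 of the 588 PBS cells but at most 7 cells in any Decoy library. A Car1-positive cluster with far more UMIs per cell supplied nearly all of the Decoy cells. Decoy 2, with 31 such cells, did not enter the test. Over the class as a whole, 43.9% of the 10617 genes tested were called, 18.7% higher and 25.2% lower. Of the 6 genes tested here, Lgals9 rose, by 1.92 ± 0.11 on the log2 scale, and Cd274 (-4.11 ± 0.19), Cd47 (-1.55 ± 0.08), Havcr2 (-5.67 ± 0.82) and Pdcd1lg2 (-3.18 ± 1.09) fell (SE, edgeR). The Pdcd1lg2 call rested on 8 PBS and 12 Decoy UMIs (adjusted p = 0.0492 in edgeR) and held in 5 of 12 alternatives, with adjusted p from 0.00944 to 0.113; leaving out Decoy 3, 5 or 6 each ended it. Scaling by the total count in place of TMM moved the median gene of this class from 0.060 to 1.27, and Cd47 to -0.33. Over the 12 alternatives the log2 difference ran from 1.88 to 3.14 for Lgals9, -4.57 to -2.90 for Cd274 and -6.63 to -4.47 for Havcr2. The sizes thus depend on the processing, and levels in CPM are scaled by the total. The Cd274 gap lay between the clusters: in the Car1-positive cluster alone, Cd274 was at 2.24 CPM in PBS (3 UMIs in 38 cells) and at 2.83 to 4.29 CPM in the Decoy libraries, and Cd47 at 502 CPM and 400 to 471 CPM. Lgals9 differed there too, at 260 CPM in PBS (95% Poisson interval 234 to 289) and at 827, 937, 996 and 961 CPM in Decoy 2, 3, 5 and 6. The haemoglobin-led PBS cells had 40.3 CPM of Cd274, above each other class of that library but the macrophage-like cells.

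Among the co-stimulators, Cd80 and Cd86 had their lowest class mean in the leukaemic cells. Cd86 was at 35.3 ± 4.25 CPM (SD, n = 5) in macrophage-like cells, at 17.4 ± 3.07 CPM in B cell-like cells and at 11.7 ± 1.27 CPM in progenitor-like cells, levels that did not overlap from class to class. In the leukaemic cells it was at 0.0921 CPM, 67 UMIs in 62 of 21716 cells, and 67.7% of those cells also held macrophage marker UMIs, against 35.8% of the others. Cd80 was low throughout, at 5.08 ± 2.23 CPM in neutrophil-like, 4.02 CPM in T cell-like and 3.95 ± 1.17 CPM in macrophage-like cells, and at 0.164 CPM in the leukaemic cells. Those 3 host classes did not differ beyond their spread. In PBS the leukaemic cells still held 92 of the 127 Cd80 UMIs. Free RNA of other cells was expected to give 2.33 of these 92 by Y-linked genes, or 7.08 by Igkc. Cd86 in macrophage-like cells was at 39.7 CPM in PBS and 29.1, 36.7, 38.1 and 33.1 CPM in Decoy 2, 3, 5 and 6, a log2 difference of -0.12 that did not pass the edgeR test. By finer cluster, dendritic cell-like cells led by Xcr1 and Fscn1 (222 cells) had the most Cd86, 48.8 CPM, beside 13.3 CPM of Cd80, and the Retnlg-led neutrophil-like cells had 17.8 CPM of Cd80.

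Cd40 was shared by B cell-like and macrophage-like cells. B cell-like cells had 36.2 CPM in PBS and 47.4, 42.1, 40.6 and 44.7 CPM in Decoy 2, 3, 5 and 6, a log2 difference of 0.30 ± 0.17 that was not called. Macrophage-like cells had 25.3 CPM in PBS and 44.3, 17.8, 20.5 and 24.0 CPM, so Decoy 2 was high and the other Decoy libraries were below PBS. The leukaemic cells held next to none, 0.0355 CPM on average. The 9, 11, 0 and 3 Cd40 UMIs counted in mast cell-like cells of PBS and Decoy 2, 3 and 6 lay close to the 7.19, 7.55, 0.923 and 2.98 expected as free RNA of other cells. After thinning, 1 of 14671 PBS mast cell-like cells had a Cd40 UMI, against 8.63% of PBS B cell-like cells. The B cell-like shares in Decoy 2, 3, 5 and 6 were 10.8%, 8.72%, 7.62% and 10.9%, on both sides of PBS.

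Cd47 was present everywhere, and its highest class mean was 1.72 times its lowest. That span was 15.2 times for Cd274 and 31.0 times or more for Pdcd1lg2, Cd80, Cd86, Cd40, Sirpa, Lgals9, Havcr2 and Pdcd1. Erythroid-like cells had 482 ± 60.4 CPM of Cd47 (SD, n = 4), progenitor-like cells 470 ± 75.4, macrophage-like cells 456 ± 15.8 (both n = 5), leukaemic mast cell-like cells 329 ± 16.6 (n = 4) and plasma cell-like cells 280 ± 27.2 (n = 3). The first 3 did not differ beyond their spread, and the leukaemic cells lay below them. In the leukaemic cells Cd47 was at 352 CPM in PBS and at 314, 330 and 319 CPM in Decoy 2, 3 and 6, a log2 difference of -0.05 ± 0.11. The Cpa3-led leukaemic cluster had more, 434 CPM against 318 to 351 CPM in the other 3. Of the classes other than erythroid-like, where Cd47 was called, progenitor-like cells came nearest to a call, at 602 CPM in PBS and 443, 449, 444 and 411 CPM in Decoy 2, 3, 5 and 6 (log2 difference -0.48 ± 0.09, edgeR adjusted p = 0.0583). The part of the mixture of progenitor-like cells in this difference was not tested. A small plasmacytoid dendritic cell-like cluster (42 cells) had 1024 CPM.

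Sirpa marked phagocytes. It was at 196 CPM in macrophage-like cells of PBS (95% Poisson interval 172 to 223) and at 365, 448, 476 and 473 CPM in Decoy 2, 3, 5 and 6. Neutrophil-like cells followed at 68.0 ± 11.1 CPM and progenitor-like cells at 63.7 ± 10.99 CPM (SD, n = 5), which do not differ beyond their spread. The highest finer cluster was the unnamed one led by Cadm1 and Sema6d, at 745 CPM, where Cd274 was at 141 CPM and Pdcd1lg2 at 84.8 CPM. In the leukaemic cells Sirpa was at 0.265 CPM in PBS and at 0.426, 1.89 and 1.46 CPM in Decoy 2, 3 and 6, a log2 difference of 2.14 ± 0.70 (SE, edgeR, adjusted p = 0.306). Of the 276 leukaemic cells with a Sirpa UMI, 60.5% also held macrophage marker UMIs, against 35.6% of the others, and the libraries with more Sirpa are those with more macrophage-like cells. It passed in 4 of 13 alternatives: DESeq2 (adjusted p = 0.0348), edgeR with no filter on low counts, without Decoy 2 (2.69, adjusted p = 0.00014) and after subtracting free RNA by Igkc. Free RNA of other cells was expected to give 42.4 of the 131 Sirpa UMIs of PBS by Y-linked genes, but 128.9 by Igkc. After subtraction the log2 difference was 1.49 (edgeR adjusted p = 0.6535) by Y-linked genes and 6.985 (adjusted p = 0.0257) by Igkc, so its size in the leukaemic cells depended on the estimate. Sirpa has close paralogs, the Sirpb1 genes, and how 3′ reads were divided between them is not given in the sources used here.

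Lgals9 came nearest to a call inside the leukaemic clone. Mast cell-like cells had 146 CPM in PBS and 186, 202 and 194 CPM in Decoy 2, 3 and 6, so each Decoy library was above PBS. The log2 difference was 0.49 ± 0.11 (SE, edgeR adjusted p = 0.0925), which did not pass. It passed in 4 of 13 alternatives: DESeq2 (adjusted p = 0.00134), voom (adjusted p = 0.0253), edgeR with no filter on low counts (adjusted p = 0.0103) and edgeR without Decoy 2 (adjusted p = 0.00209). The adjusted p ranged from 0.00134 to 0.162 over the 13. The level was higher in each Decoy library than in PBS in 3 of the 4 leukaemic clusters, for example 165 CPM in PBS and 204, 219 and 209 CPM in Decoy 2, 3 and 6 in the Cpa3-led cluster. After thinning, 25.3% of PBS mast cell-like cells had a Lgals9 UMI (95% Clopper-Pearson interval 24.6 to 26.0), against 30.4%, 33.1% and 33.2% in Decoy 2, 3 and 6. Every gap between PBS and a Decoy library is thus wider than counting error, while their number is too small for the permutation test.

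Outside the leukaemic cells, Lgals9 was highest in erythroid-like cells of the Decoy libraries, at 935, 994 and 944 CPM in Decoy 3, 5 and 6 against 109 CPM in PBS. Macrophage-like cells had 62.5 CPM in PBS (95% Poisson interval 49.1 to 78.5) and 95.5, 92.8, 93.7 and 95.1 CPM in Decoy 2, 3, 5 and 6. The Decoy libraries were nearly equal, and PBS lay below all of them. B cell-like, T cell-like, neutrophil-like and progenitor-like cells averaged 67.9 to 79.1 CPM of Lgals9 and gave no call.

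Havcr2, the TIM-3 receptor, was highest in T cell-like cells. There it was at 139 CPM in PBS (95% Poisson interval 114 to 167) and at 89.9, 60.025, 64.9 and 67.1 CPM in Decoy 2, 3, 5 and 6. The log2 difference of -0.90 ± 0.24 did not pass (SE, edgeR, adjusted p = 0.302). Macrophage-like cells were next, at 34.6 CPM in PBS (24.8 to 47.0) and 16.1, 16.1, 13.8 and 17.5 CPM, and the leukaemic cells had 1.07 CPM on average. Of the 4 leukaemic clusters the Cpa3-led one had 3.73 CPM and the others 0.215 to 0.332 CPM. PBS was the highest library in T cell-like, macrophage-like and progenitor-like cells alike.

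Pdcd1 belonged to T cell-like cells, at 209 CPM in PBS (95% Poisson interval 179 to 243) and at 123, 125, 122 and 150 CPM in Decoy 2, 3, 5 and 6. The log2 difference of -0.61 ± 0.17 did not pass (SE, edgeR, adjusted p = 0.305), nor did any of the 10 genes in this class, where 0% of 10399 genes were called, 1136 had an unadjusted p under 0.05, DESeq2 called 101 and voom 0. After thinning, 33.9% of PBS T cell-like cells (22.1 to 47.4) and 27.2%, 23.3%, 22.5% and 24.1% of those of Decoy 2, 3, 5 and 6 had a Pdcd1 UMI. Unthinned, the order turned, at 48.4% and 51.4% to 67.0%. Pdcd1 and Havcr2 were highest in the same finer cluster, at 181 and 100.1 CPM. It was an unnamed one led by Gzma and Gzmb, genes of cytotoxic granules (246 cells). Klre1 and Ncr1, markers of natural killer cells, were also among its leading genes, and it carried 7 T cell and 5 natural killer cell markers. T cell-like cells led by Dapl1 and Lef1, genes of naive T cells (250 cells), had 101 and 48.8 CPM. The Gzma-led cluster held 18 cells in PBS and 38, 49, 81 and 60 in Decoy 2, 3, 5 and 6. The Dapl1-led cluster held 35 in PBS and 23, 42, 103 and 47. The part of this mixture in the Pdcd1 and Havcr2 differences was not tested. In mast cell-like cells 0 of 14671 thinned PBS cells had a Pdcd1 UMI, for which 3 counts would be 0.0204%.

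Macrophage-like cells held 337 of the 1695 Pdcd1 UMIs of all kept cells, and most of the cells that held them also held T cell transcripts. Of 2622 macrophage-like cells, 103 held a Pdcd1 UMI, and 96.1% of these also held UMIs of T cell markers, against 15.5% of the others. Their median depth was 54130 UMIs, against 17220 in the others. Since the doublet caller did not work in the Decoy libraries, droplets with a macrophage and a T cell cannot be told apart here from macrophages with Pdcd1. The macrophage-like cells of PBS had no Pdcd1 UMI, which allows up to 2.53 CPM.

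The difference between classes was tested directly for macrophage-like and B cell-like against mast cell-like cells. No gene of the 10 passed in either, where 0.00811% and 0.00895% of the genes tested were called. For Cd274 the Decoy effect was larger in macrophage-like than in mast cell-like cells by 0.61 ± 0.24 on the log2 scale (SE, edgeR, adjusted p = 0.325), and for Lgals9 by 0.15 ± 0.16. A change of Cd274 in macrophage-like cells that is absent from the leukaemic cells was therefore not shown.

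Over the 36 class by library sums of 8 classes, the genes whose log2(CPM + 1) levels ran most like Cd274 were Cdk14, Cadm1 and Sash1, with Pearson correlations of 0.865, 0.848 and 0.844 among 9430 genes. For Cd86 they were Evl, Plekho1 and Ms4a4c (0.982, 0.963 and 0.954), and for Cd40 they were Fam43a, Pkib and Ciita (0.919, 0.904 and 0.903), the last the regulator of MHC class II genes. Sums of a library share its depth and free RNA, so these values only describe the pattern. Cadm1 also led the unnamed host cluster that was rich in Cd274, Pdcd1lg2 and Sirpa.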

How the data were processed

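The deposited matrices held counts, whole numbers of UMIs per gene and cell barcode made with 10x 3′ v3.1 chemistry. The matrix headers name Cell Ranger 5.0.0, while the submitters' processing notes list Cell Ranger 3.1, Seurat 4, DESeq2 and the mm10 build. Barcodes were kept from 500 genes and 1000 UMIs upwards if mitochondrial UMIs were at most 10%, and those marked by scrublet were removed (scanpy 1.11.5). The 2000 most variable genes, without the genes described here, gave 30 principal components and Leiden clusters at a resolution of 0.5, which were named from 17 marker lists. These names mean resemblance in the markers.

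UMI counts were summed per library and class with at least 50 cells. Levels are CPM, UMIs of a gene per 1000000 UMIs of the class, with SDs over libraries. Differences are from edgeR 4.0.16 (filterByExpr, TMM, two-sided quasi-likelihood test, Benjamini-Hochberg over all genes tested, called at an adjusted p under 0.05) in R 4.3.3. With 1 PBS library, the spread comes from the Decoy libraries and PBS is assumed to vary like them. The total was 56490098 to 579333323 UMIs per library. Intervals cover counting error only. The edgeR script, tested on simulated data, recovered 100% of 200 genes changed 4-fold over all kept cells and in mast cell-like cells. Apart from those genes, all simulated libraries had the same profile, with a spread between libraries (dispersion) of 0.02. The real libraries differed in their cells, so this checks the script and does not measure its power here. Gene positions are from GENCODE vM21, which held 32235 of the 32285 identifiers, and promoters from RefSeq.

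The genes and both further gene lists were chosen with earlier results of these data known. All 10 genes are named whatever their result. Of each further list, the text names up to 4 called genes with the largest change per comparison, or the 2 with the highest level where none was called, and for Cd274, Cd86 and Cd40 the 3 genes with the most similar levels. A gene that this rule would name is not reported here. Clusters, and genes named for their cluster levels, were chosen after their values were seen. Alternatives were DESeq2 1.42.0, limma voom 3.58.1, other scaling, filters, doublet removal, class definitions and thinning depths, subtraction of free RNA, and leaving out each Decoy library.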

Additional observations from a re-analysis of the deposited data

Results flagged for a closer look

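Among the Decoy libraries, 1 lay far from the other 3 in 5 of 56 groups of levels, where chance flags about 1 in 20. Pdcd1 in T cell-like cells was at 150.5 CPM in Decoy 6 (316 UMIs) and at 121.5 to 125.3 CPM in the others. Pdcd1 over all kept cells was at 1.36 CPM in Decoy 2 and at 5.29 to 5.53 CPM in the others. Decoy 2 had T cell-like cells as 1.33% of its kept cells and the others as 3.67% to 5.07%. Lgals9 in B cell-like cells was at 94.3 CPM in Decoy 2 (171 UMIs) and at 62.8 to 66.9 CPM in the others. Xist in these cells was at 183 CPM in Decoy 2 and at 1.04, 0 and 95.5 CPM in Decoy 3, 5 and 6. The part of leukaemic RNA in this Lgals9 level was not tested. Cd47 in granulocyte-monocyte progenitor-like cells was at 411 CPM in Decoy 6 and at 443 to 449 CPM in the others. Cd40 in neutrophil-like cells was at 21.5 CPM in Decoy 3 and at 0 to 0.383 CPM in the others. All 23 of those Cd40 UMIs came from 1 cell, with 67590 UMIs in all.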

How the results depend on the processing

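No paired analysis was possible because the PBS and Decoy libraries share no replicate number. None of the reversed values below was called. Counts of the genes described here that were called higher over all kept cells were 0, but 4 with DESeq2 and 0 to 7 when a Decoy library was left out (7 without Decoy 2). In mast cell-like cells they were 0, but 2 with DESeq2, 1 with voom, 2 with no filter on low counts, 1 after subtracting free RNA by Igkc and 0 to 3 when a library was left out. In macrophage-like cells they were 3, but 0 with voom, 1 in host cells without Xist and 0 to 3 when a library was left out. The count called lower there was 1, but 0 with voom, 0 with doublets removed at the expected rate, 0 at resolution 1.0, 0 in host cells without Xist and 0 to 1 when a library was left out. In erythroid-like cells the count called higher was 1, but 2 when scaled by the total alone, and the count called lower was 4, but 3 in 7 of 12 alternatives, all for want of Pdcd1lg2. In progenitor-like cells the count called lower was 0, but 1 with DESeq2, 1 by Xist and Y-linked UMIs, 1 in host cells without Xist and 0 to 2 when a library was left out. The difference between macrophage-like and mast cell-like cells gave 0 calls, but 0 to 1 when a library was left out, with 1 without Decoy 2. The alternatives with host cells without Xist and the finer host clusters were chosen after seeing the data.

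Leaving out each Decoy library gave these ranges of log2 differences where the sign turned: over all kept cells Pdcd1lg2 -0.27 to 0.071; in mast cell-like cells Cd80 -0.54 to 0.22, Cd86 -0.52 to 0.44 and Havcr2 -0.15 to 0.52; in macrophage-like cells Cd40 -0.21 to 0.21; in neutrophil-like cells Cd47 -0.062 to 0.060; in T cell-like cells Lgals9 -0.48 to 0.0090. For the difference from mast cell-like cells they were Cd86 -1.11 to 0.044 in macrophage-like cells, and Cd86 -0.71 to 0.71, Cd47 -0.093 to 0.044 and Lgals9 -0.22 to 0.16 in B cell-like cells. In percentage points of cells with a UMI they were -0.0838 to 0.0463 for Cd274 in mast cell-like and -3.13 to 0.703 for Havcr2 in T cell-like cells.

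Other reversed log2 differences were as follows. DESeq2 gave Cd47 -0.0066 in neutrophil-like cells. Voom gave Cd86 -0.0041 and Havcr2 -0.0097 in mast cell-like and Cd40 -0.10 in macrophage-like cells. Scaling by the total gave Cd40 -0.012 in macrophage-like and Cd47 -0.23 in neutrophil-like cells, and no filter gave Cd47 -0.020 over all kept cells. Subtracting free RNA by Y-linked genes gave Cd86 -0.12 in mast cell-like cells. Doublets removed at the expected rate gave Cd86 -0.063 in B cell-like, Cd274 -0.019 in progenitor-like, Cd47 -0.015 in neutrophil-like and Lgals9 0.48 in T cell-like cells. At least 5000 UMIs per cell gave Cd47 0.12 in B cell-like and -0.057 in neutrophil-like cells and Cd86 0.041 in macrophage-like cells. Resolution 1.0 gave Cd80 0.015, Cd86 1.32 and Cd40 -0.15 in macrophage-like cells, and their difference from mast cell-like cells as 0.083 for Cd80, 0.98 for Cd86 and -0.083 for Lgals9. Classes by Xist and Y-linked UMIs gave Pdcd1lg2 0.78, Cd80 -0.067 and Cd47 0.17 in B cell-like cells, and Cd274 -0.65, Cd86 -0.21 and Cd40 -0.48 in progenitor-like cells. Host cells without Xist gave Pdcd1lg2 0.080 and Cd86 -0.17 in B cell-like cells, Cd274 -0.50, Cd86 -0.15 and Cd40 -0.34 in progenitor-like cells, Cd40 -0.36 in macrophage-like, Cd47 -0.14 in neutrophil-like and Lgals9 0.56 in T cell-like cells. Shares without thinning differed by 4.07 points for Cd274 in mast cell-like, 18.2 for Cd86 in macrophage-like, 10.9 for Pdcd1 and 10.8 for Havcr2 in T cell-like cells, and Cd274 in mast cell-like cells by 0.799 at 5000 UMIs. The cause was not tested.

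All genes called ranged from 0 to 2474 over all kept cells, 54 to 715 in mast cell-like (91 in the main test), 0 to 239 in B cell-like (5), 3319 to 8298 in erythroid-like (4663), 29 to 485 in progenitor-like (146), 15 to 1497 in macrophage-like (709), 0 to 40 in neutrophil-like (0) and 0 to 101 in T cell-like cells (0). Classes by Xist and Y-linked UMIs left too few PBS cells for macrophage-like, T cell-like and neutrophil-like tests. The class with the highest mean level stayed the same in the 3 alternatives run for levels for 7 of the 10 genes. At resolution 1.0 a conventional dendritic cell-like class came first for Cd80 (12.5 CPM), Cd86 (61.9) and Cd47 (570), and by Xist and Y-linked UMIs T cell-like cells did for Cd80 (5.66). The 64 to 113 PBS cells of the T cell-like, neutrophil-like and macrophage-like classes limit what could be seen there.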

Other observations

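Other co-signalling genes, 42 ligands and receptors of T cells and phagocytes chosen with earlier results known, had called members in 3 classes. In macrophage-like cells 4 of 36 tested genes rose and none fell, with a median log2 difference of 0.53 against 0.077 over all genes, of which 2.96% rose and 2.34% fell. They were Lag3, an inhibitory receptor of T cells that binds MHC class II (1.62 CPM in PBS, 25.0 ± 3.84 in Decoy, SD, n = 4; log2 difference 3.95 ± 0.56, edgeR adjusted p = 0.0248), Lrp1, a receptor for calreticulin on phagocytes (1.82 ± 0.21, adjusted p = 0.0194), Vsir, which encodes the inhibitory ligand VISTA (0.91 ± 0.13, adjusted p = 0.0244), and Pilra, an inhibitory receptor of myeloid cells (0.73 ± 0.10, adjusted p = 0.0248). Lrp1 is also a leading gene of the macrophage-like cluster that held 57.9% of the class's UMIs in PBS and 91.2% to 97.6% in Decoy. Lag3 was highest in T cell-like cells, at 286 CPM on average, and 41.8% of the 423 macrophage-like cells with a Lag3 UMI also held UMIs of T cell markers, against 14.2% of the others. The part of T cell RNA in the Lag3 difference, and of the mixture in those of Lag3, Lrp1, Vsir and Pilra, was not tested. In progenitor-like cells, where 1.31% of all genes were called, 3 of 25 fell, namely Cd244a (-1.68 ± 0.16), Siglece (-1.28 ± 0.14) and Pilra (-1.07 ± 0.16). Without Xist-positive cells, the Vcan-led monocyte-like cluster made up 81.9% of this class in PBS and 60.8% to 70.3% in Decoy. The part of this mixture in the 3 falls was not tested. Pilra thus moved in opposite directions in macrophage-like and progenitor-like cells, a difference that was not tested. In erythroid-like cells, which were of different clusters in the groups and where 18.7% of all genes rose and 25.2% fell, 1 of 13 rose (Cd48, 1.53) and 4 fell, Tnfrsf14 (-2.40), Cd24a (-2.40) and Vsir (-2.20) among them. None was called by edgeR among the 27 tested in the leukaemic mast cell-like cells (6 at an unadjusted p under 0.05; Calr 0.10 and Cd48 -0.21), the 22 in B cell-like (4; Calr -0.05, Siglecg -0.25), the 35 in T cell-like (10; Calr 0.11, Cd48 0.34) and the 19 in neutrophil-like cells (4; Cd24a 0.57, Vsir 0.55), nor among the 39 tested over all kept cells (18; Calr 0.29, Cd24a 2.48).

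The other list held 18 genes known to act on Cd274 transcription or on the PD-L1 protein. Of these, Ifngr1 and Irf1 are named for their levels in the leukaemic cells and were chosen after the levels were seen. Others were well expressed in the same cells, with Myc at 115.9 and Nfkb1 at 118.9 TMM-scaled CPM in PBS. Ifngr1, a chain of the interferon-gamma receptor, averaged 0.67 CPM in mast cell-like cells against 37.4 to 155 CPM in the other classes apart from plasma cell-like cells, and 7.76 CPM in those. Irf1, a transcription factor of the interferon response, averaged 7.34 CPM in mast cell-like cells. None of the 18 was called by edgeR in mast cell-like cells (3 at an unadjusted p under 0.05; Myc 0.24 ± 0.13, Nfkb1 -0.27 ± 0.11), in macrophage-like cells (4; Ifngr1 -0.04), in B cell-like cells (5; Jak1 -0.32), in T cell-like cells (0; Jak1 0.09) or over all kept cells (4; Jak1 -0.12), nor any of 17 in neutrophil-like cells (3; Jak1 0.35). In progenitor-like cells Hif1a fell, by 0.69 ± 0.11 on the log2 scale (edgeR adjusted p = 0.0439). The part of the mixture of that class in this fall was not tested. In erythroid-like cells 3 of 17 rose and 6 fell, against 18.7% and 25.2% of all genes, with Ifngr2 at -2.92, Adam10 at -1.996, Jak1 at -1.30 and Ifngr1 at 1.32. Stat3, the target of the decoy, averaged 60.8 CPM in mast cell-like and 121 CPM in macrophage-like cells.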
